A study of Arabidopsis thaliana with 12 samples.

Results

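The plant circadian clock is a loop of genes that repress and activate each other over the day. Its 10 core genes were followed in *Arabidopsis* rosette leaves. The members were chosen by locus as textbook core genes of the clock, by a rule that holds no measured value, and all 10 were found among the 23069 genes of the deposited expression table. They are the morning genes *LHY* (AT1G01060) and *CCA1* (AT2G46830), the pseudo-response regulators *PRR9* (AT2G46790), *PRR7* (AT5G02810), *PRR5* (AT5G24470) and *TOC1* (AT5G61380), and the evening genes *GI* (AT1G22770), *ELF3* (AT2G25930), *ELF4* (AT2G40080) and *LUX* (AT3G46640).

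RNA was sequenced from 30-day-old rosette leaves of wild-type Col-0 plants (WT) and of the *kaku4-2* mutant, with 3 libraries of each genotype described as independent biological replicates. The mutant is homozygous for a T-DNA insertion and is a knockdown of *KAKU4* (AT4G31430), which encodes a component of the plant nuclear lamina. It is 1 insertion line, and no rescued line was part of these data. The plants grew in a cycle of long light and short darkness, and the hour at which the leaves were taken is not given in the sources used here. Histone mark libraries of the same genotypes were not analysed here.

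In the clock of *Arabidopsis*, the MYB factors LHY and CCA1 accumulate around dawn and repress evening genes through a promoter sequence called the evening element. PRR9, PRR7, PRR5 and TOC1 are expressed one after another from morning to evening and repress *CCA1* and *LHY*. ELF3, ELF4 and LUX form the evening complex, which represses *PRR9* and other genes at night, and GI stabilises the F-box protein ZTL, which directs TOC1 and PRR5 for degradation. Levels of these transcripts therefore depend strongly on the hour, and a difference between genotypes in their level, in their timing or in the hour of harvest cannot be told apart in samples of 1 time point.

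Of the 9 genes that could be tested, only *PRR9* was upregulated in the *kaku4-2* mutant by the cutoff of the study, used here with p-values computed anew. Used in this way, the cutoff called 5.02% of all genes up. None was downregulated by it, against 6.64% of all genes, and none passed an adjusted p of 0.05, against 0.480%. The mean level of *PRR9* was 11.0 ± 3.26 FPKM in the mutant, against 4.80 ± 2.91 FPKM in the WT (SD, n = 3 each). *LHY*, the most abundant of the 10 in the WT, was called down only in the 3 of 17 other settings that left out the divergent replicate 3 of the mutant, gave libraries weights or removed the length trend. *CCA1*, the partner of *LHY*, did not follow it, and the ratio of *CCA1* to *LHY* was higher in every mutant library than in every WT library, as was the ratio to *LHY* of 31.5% of all genes, and of 66.7% once the length trend was removed.

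FPKM counts the sequenced fragments of a gene per kilobase of its transcript, relative to the size of the library, so levels are per length and can be compared between genes. Fold changes are differences of the mean log2(FPKM + 0.1) between the mutant and the WT, which understate the change of genes near 0. They were tested with limma over the 20638 genes with a mean of at least 0.1 FPKM. To be called by the cutoff of the study, a gene needs medians that differ by 0.6 or more on the log2 scale, in either direction, and a limma p of 0.05 or less before adjustment. The study does not name the test behind its own p, so these calls are not its calls. It reports more genes up than down, whereas 1037 were up and 1370 down here.

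The targeted gene followed the labels. *KAKU4* stood at 2.69, 3.61 and 2.51 FPKM in the WT and at 0.402, 0.433 and 0.313 FPKM in the mutant, a log2 fold change of −2.64 (SE 0.41, limma, adjusted p = 0.00933 by Benjamini-Hochberg, and 0.114 without WT replicate 1 or 0.110 without WT replicate 2). *kaku4-2* replicate 3 stood apart from the other libraries. Its log2 values correlated with those of the other 5 at 0.895 to 0.936, against 0.963 to 0.981 among those 5, and its deposited FPKM summed to 829805, against 1245643 to 1767459 in the others. The fold changes of the members and the order of their levels are given with and without it. The summed FPKM of 4 listed leaf photosynthesis markers was 17584 to 25177 in the WT and 14434 to 17226 in the mutant, none of them at 0. The ranges overlapped for the 2 phloem markers (21.6 to 29.3 against 16.6 to 40.8), the 3 guard cell markers (10.7 to 15.0 against 12.2 to 18.4) and the 2 listed root markers (29.7 to 46.7 against 39.6 to 67.5). The 5 flower markers summed to 1.72 to 3.41 in the WT and 1.58 to 1.72 in the mutant. The part of these differences in the results was not tested. In whole leaves, fewer cells of a type and less RNA per cell cannot be told apart.

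**Figure D1:**
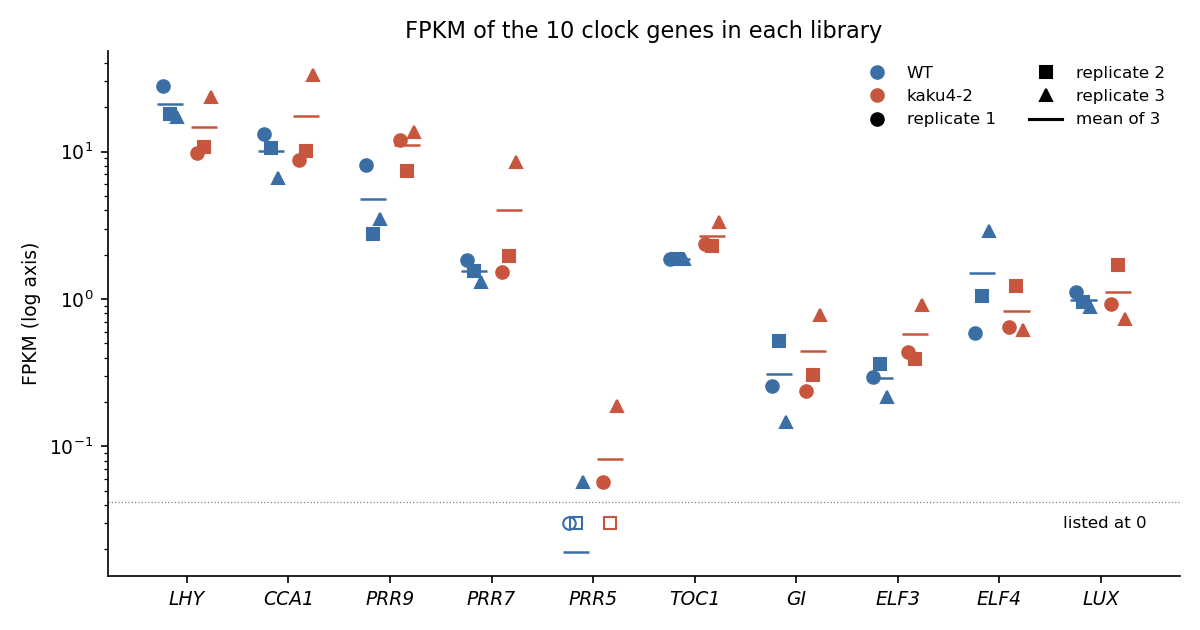
FPKM of the 10 clock genes on a log axis, with WT libraries in blue and *kaku4-2* libraries in red, replicates 1, 2 and 3 as circles, squares and triangles, and a line at the mean of 3. Open symbols under the dotted line are values listed at 0. The triangle of *kaku4-2* replicate 3 lies far above the other symbols for *CCA1* (33.3 FPKM) and *PRR7* (8.53 FPKM), and the WT symbols of *TOC1* fall on each other at 1.87 to 1.88 FPKM.

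Since these genes regulate each other through short promoter sequences, the 300 bases around the annotated start of 9 of them were read, 250 before it and 50 from it on. The sequences came from the RefSeq genome of the TAIR10.1 assembly. Printed here are *LHY* and *CCA1*, whose ratio differed between the genotypes, *PRR9*, which was called, and *TOC1*, a known target of LHY and CCA1 through the evening element. Each runs 5′ to 3′ along the gene. Capitals mark the evening element (AAATATCT), the CCA1 binding site (AAAAATCT or AACAATCT), the G-box (CACGTG) and the LUX binding site (GATTCG or GATACG), read on either strand, so that a match on the other strand shows as its reverse complement.
LHY promoter, chr1:37822-38121, minus strand: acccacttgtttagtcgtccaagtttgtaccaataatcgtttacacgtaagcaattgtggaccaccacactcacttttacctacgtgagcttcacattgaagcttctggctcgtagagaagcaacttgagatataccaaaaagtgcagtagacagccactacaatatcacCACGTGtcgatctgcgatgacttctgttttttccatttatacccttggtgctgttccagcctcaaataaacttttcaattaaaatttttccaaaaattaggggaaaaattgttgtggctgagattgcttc
CCA1 promoter, chr2:19245341-19245640, plus strand: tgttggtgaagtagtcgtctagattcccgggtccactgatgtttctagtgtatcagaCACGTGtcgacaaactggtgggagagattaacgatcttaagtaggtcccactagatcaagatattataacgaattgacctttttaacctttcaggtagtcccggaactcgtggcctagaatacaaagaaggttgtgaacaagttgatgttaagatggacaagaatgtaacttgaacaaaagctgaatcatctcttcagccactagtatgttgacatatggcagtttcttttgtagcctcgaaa
PRR9 promoter, chr2:19232357-19232656, plus strand: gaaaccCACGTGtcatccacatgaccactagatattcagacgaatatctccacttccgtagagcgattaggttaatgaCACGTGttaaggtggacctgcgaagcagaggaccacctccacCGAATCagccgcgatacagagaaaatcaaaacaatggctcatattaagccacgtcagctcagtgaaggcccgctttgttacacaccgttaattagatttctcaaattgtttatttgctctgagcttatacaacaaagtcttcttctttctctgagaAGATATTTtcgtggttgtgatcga
TOC1 promoter, chr5:24674713-24675012, plus strand: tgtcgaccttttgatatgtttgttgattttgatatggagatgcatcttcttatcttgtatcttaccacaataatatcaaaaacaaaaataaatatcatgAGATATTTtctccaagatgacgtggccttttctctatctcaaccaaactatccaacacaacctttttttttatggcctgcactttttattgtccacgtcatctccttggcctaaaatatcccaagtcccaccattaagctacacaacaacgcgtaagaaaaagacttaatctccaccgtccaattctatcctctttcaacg

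The evening element was found in 4 of the 9 windows, those of *TOC1*, *PRR9*, *PRR5* and *LUX*. It was in 5.65% of the 27443 windows placed in this way at the starts of nuclear protein-coding genes. Its form with 1 more A at the start, AAAATATCT, was in the same 4 of the 9 and in 2.82% of all. *LUX* held 2 evening elements. That of *PRR9* began at base 26, counted from 0 at the annotated start, and that of *TOC1* at base −151. A G-box, a sequence bound by light-signalling factors of the bHLH and bZIP families, was in the windows of *LHY*, *CCA1*, *PRR9*, *PRR7* and *LUX*, against 7.68% of all windows. *PRR9* alone among the 9 held 2 of them. The LUX binding site was in *PRR9* and *ELF3*, against 14.5% of all windows, and the CCA1 binding site in *PRR5* and *ELF3*, against 9.93%. *GI* held none of these motifs in this window. In the 1000 bases upstream, *GI*, *PRR5* and *LUX* each held 3 evening elements and *TOC1* held 1. These were 4 of the 9 members, against 15.3% of all windows of that length. None of the 15 matches in the windows of 300 bases overlapped another. Thus neither *LHY* nor *CCA1* had an evening element, and *PRR9* carried 3 of the 4 kinds of motif. These matches describe the letters only.

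**Figure D2:**
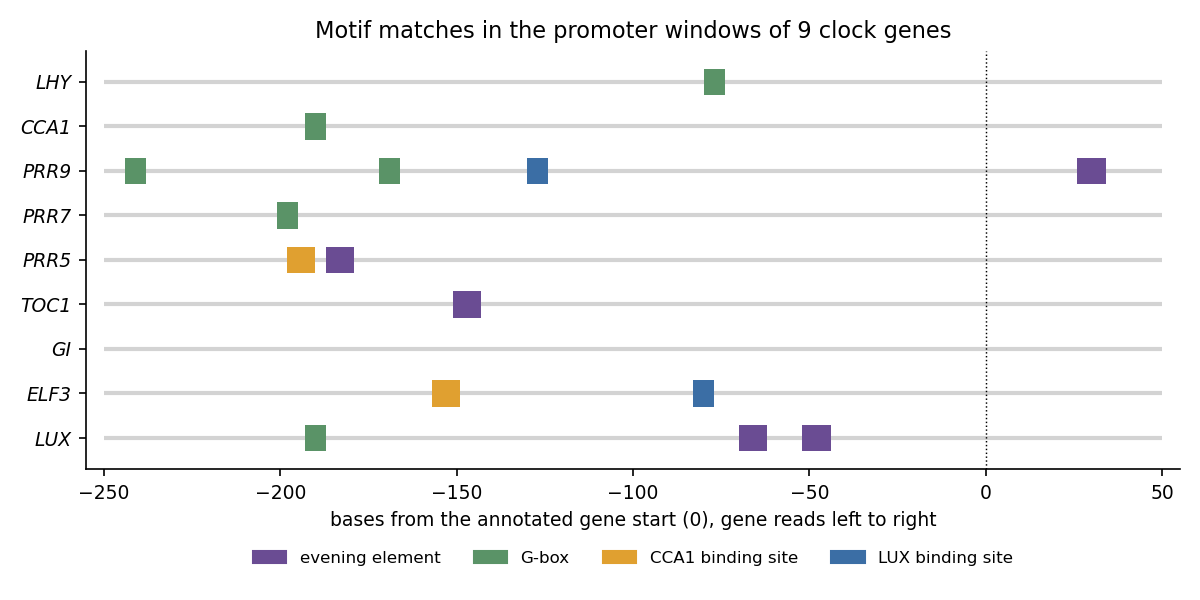
Motif matches from 250 bases before to 50 bases after the annotated start of 9 clock genes, with the gene reading left to right and the start at 0. Boxes are matches on either strand, coloured by motif. *LUX* holds 2 evening elements, *PRR9* holds 2 G-boxes, and *GI* holds no match.

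*LHY* lies on chromosome 1 at 33365 to 37871 on the minus strand of TAIR10.1. Its level was 27.9, 18.0 and 17.1 FPKM in WT replicates 1, 2 and 3 and 9.87, 10.7 and 23.3 FPKM in *kaku4-2* replicates 1, 2 and 3. The first 2 mutant libraries lay below all WT libraries, while the third lay inside the WT range. Over the 6 libraries, the log2 fold change was −0.60 (SE 0.36, 95% interval −1.37 to 0.17), with an adjusted p of 0.389 in limma by Benjamini-Hochberg. Without *kaku4-2* replicate 3 it was −0.99 (SE 0.25, 95% interval −1.53 to −0.45, limma, adjusted p = 0.0854), and *LHY* was called down by the cutoff, as were 6.66% of all genes in that fit.

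*CCA1* lies on chromosome 2 at 19245591 to 19248915 on the plus strand. It stood at 13.2, 10.6 and 6.67 FPKM in the WT and at 8.78, 10.1 and 33.3 FPKM in the mutant. The first 2 mutant libraries fell within the WT range, and the third was the highest of all 6. The log2 fold change was 0.55 (SE 0.45, 95% interval −0.43 to 1.52, limma, adjusted p = 0.510 by Benjamini-Hochberg), and it was −0.06 (SE 0.29, 95% interval −0.70 to 0.58) without *kaku4-2* replicate 3. The interval of the 5 libraries thus reached from a decrease to an increase by about the size of the cutoff.

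*PRR9*, the first of the pseudo-response regulators to be expressed in the day, lies near *CCA1* on chromosome 2, at 19232607 to 19235179 on the plus strand. Its values were 8.13, 2.76 and 3.51 FPKM in the WT and 12.0, 7.38 and 13.7 FPKM in the mutant. Mutant replicates 1 and 3 lay above all WT libraries, and mutant replicate 2 lay below WT replicate 1, so the groups overlapped. The log2 fold change was 1.29 (SE 0.41, 95% interval 0.42 to 2.17) and the log2 ratio of medians 1.77, with an adjusted p of 0.217 in limma by Benjamini-Hochberg, and it passed the cutoff, which rests on the p before adjustment. Without *kaku4-2* replicate 3 the log2 fold change of *PRR9* was 1.11 (SE 0.42, 95% interval 0.19 to 2.04), and 4.65% of all genes were called up in that fit. *PRR9* was called up in all 17 other settings tried, with log2 fold changes of 0.98 to 1.75 and adjusted p values of 0.00255 to 0.648 in limma. The lowest came with library weights, whose estimation did not converge. That fit had 5054 genes at an adjusted p of at most 0.05, against 99 in the main fit. The next lowest for *PRR9* was 0.0564, without *kaku4-2* replicate 2.

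*CCA1* and *PRR9* were 10411 bases apart with 3 protein-coding genes between them. The metal transporter gene *ZAT* (AT2G46800) stood at 37.5 to 43.1 FPKM in WT libraries and at 30.2 to 30.4 FPKM in mutant libraries, a log2 fold change of −0.40 (SE 0.25, limma, adjusted p = 0.403 by Benjamini-Hochberg). AT2G46810 was also lower in all 3 mutant libraries, at −0.27 on the log2 scale (limma, adjusted p = 0.622), and *PSI-P* (AT2G46820) had a log2 fold change of −0.64 (adjusted p = 0.394). Of all genes tested, 15.0% were lower in all mutant libraries. None of the 3 genes between *CCA1* and *PRR9* was called. All 3 had a negative fold change, as had 10546 of the 20638 genes tested.

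*PRR7*, on chromosome 5 at 637681 to 642030, acts with *PRR9* in the morning loop. It stood at 1.83, 1.55 and 1.301 FPKM in the WT and at 1.53, 1.97 and 8.53 FPKM in the mutant. The third mutant library alone was far from the others. Its log2 fold change was 0.90 (SE 0.54, 95% interval −0.26 to 2.06, limma, adjusted p = 0.389 by Benjamini-Hochberg) and 0.16 (SE 0.32, 95% interval −0.55 to 0.87) without that library. *PRR7* was called up when mutant replicate 1 (1.36, limma, adjusted p = 0.227) or replicate 2 (1.19, adjusted p = 0.230) was left out, which gives the third library more weight. In these 2 fits, 1339 of 20643 and 1258 of 20639 genes were called up.

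*TOC1*, the last of the family to be expressed, lies on chromosome 5 at 24674963 to 24678550. Its WT values were 1.87, 1.88 and 1.87 FPKM, and its mutant values were 2.37, 2.27 and 3.34 FPKM. All 3 mutant libraries lay above all WT libraries. The SD of the WT values was 0.0032 on the log2 scale, less than that of all but 0.368% of the genes tested. The log2 fold change was 0.46 (SE 0.36, 95% interval −0.31 to 1.23, limma, adjusted p = 0.484 by Benjamini-Hochberg), where the SE draws on the spread of all genes of like level. Exact permutation tests of the 6 libraries, two-sided, gave 0.1 for *TOC1* and *ELF3*, 0.2 for *PRR9* and 0.3 for *LHY*, where 0.1 is the smallest p that 3 against 3 allows. Without *kaku4-2* replicate 3 the log2 fold change was 0.29, and with the length trend removed 0.06.

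*PRR5*, on chromosome 5 at 8356204 to 8358546, was hardly detected. It was listed at 0 in WT replicates 1 and 2 and in mutant replicate 2. WT replicate 3 and mutant replicate 1 held 0.0577 FPKM, the smallest value above 0 in the table, and mutant replicate 3 held 0.187 FPKM. Its mean of 0.0504 FPKM left it out of the test. An estimated 8.4 fragments at most lay behind any of these values, so a difference was not detectable at this depth.

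Among the evening genes, *GI*, on chromosome 1 at 8061751 to 8067790, stood at 0.258, 0.520 and 0.146 FPKM in the WT and at 0.238, 0.306 and 0.777 FPKM in the mutant. Its log2 fold change was 0.38 (SE 0.59, 95% interval −0.89 to 1.65, limma, adjusted p = 0.733 by Benjamini-Hochberg) and −0.03 without *kaku4-2* replicate 3. The groups overlapped, and an estimated 11.4 to 100 fragments lay behind each value.

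*ELF3*, the scaffold of the evening complex, lies on chromosome 2 at 11058944 to 11063324. It stood at 0.295, 0.359 and 0.215 FPKM in the WT and at 0.434, 0.392 and 0.907 FPKM in the mutant, so that all mutant libraries lay above all WT libraries. It had a log2 fold change of 0.74 (SE 0.52, 95% interval −0.39 to 1.86, limma, adjusted p = 0.452 by Benjamini-Hochberg) and 0.41 (SE 0.47) without *kaku4-2* replicate 3. *TOC1* and *ELF3* were the 2 of 9 members whose mutant libraries all lay above the WT, against 7.92% of all genes, and no member lay below in all, against 15.0%. *ELF3* shares 183 bases with an antisense RNA gene and 24 bases with AT2G25940 on the other strand. The use of strand in the counting is not given in the sources used here, so reads of overlapping genes may be mixed.

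*ELF4* is a short gene of 1 transcript of 619 bases on chromosome 2 at 16734294 to 16734953. It stood at 0.585, 1.04 and 2.89 FPKM in the WT and at 0.647, 1.22 and 0.615 FPKM in the mutant, on an estimated 5.0 to 19.8 fragments. The high value was that of WT replicate 3, and the groups overlapped. Its log2 fold change was −0.58 (SE 0.55, 95% interval −1.76 to 0.60, limma, adjusted p = 0.563 by Benjamini-Hochberg). Leaving out a library moved it to 0.01 (WT replicate 3), −1.06 (WT replicate 1) or −0.42 (*kaku4-2* replicate 3).

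*LUX*, the DNA-binding member of the evening complex, lies on chromosome 3 at 17183042 to 17186959. It stood at 1.11, 0.961 and 0.876 FPKM in the WT and at 0.926, 1.70 and 0.728 FPKM in the mutant. The mutant libraries lay on both sides of the WT range. The difference in log2 was 0.10 (SE 0.44, 95% interval −0.86 to 1.05, limma, adjusted p = 0.916 by Benjamini-Hochberg) and 0.33 (SE 0.38) without *kaku4-2* replicate 3. *LUX* shares 1507 bases with AT3G46650 on the other strand, which was listed at 2.40 to 6.47 FPKM, so its values are uncertain.

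The median log2 fold change of the 9 tested members was 0.46, with 7 positive and 2 negative values, beside a median of −0.02 over all genes tested. The difference between the long clock genes and other genes has to be read beside the length trend of *kaku4-2* replicate 3. In that library, the median difference to the average of the other mutant libraries went from −1.05 on the log2 scale in the shortest of 20 classes of transcript length to 1.25 in the longest. *LHY* (1.18, against 1.00 for transcripts of its length), *PRR9* (0.54 against 0.37), *GI* (1.24 against 1.25) and *ELF3* (0.97 against 1.00) stood near the median deviation of their length class. *TOC1* (0.51 against 1.00) and *LUX* (−0.71 against 0.31) stood under it, at percentiles 23.3 and 12.9 of the class. *CCA1* (1.82 against 0.68) and *PRR7* (2.23 against 1.18) deviated more than nearly all genes of their length, at percentiles 97.0 and 98.6. *ELF4*, the only short member, deviated by −0.47 against −1.05.

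**Figure D3:**
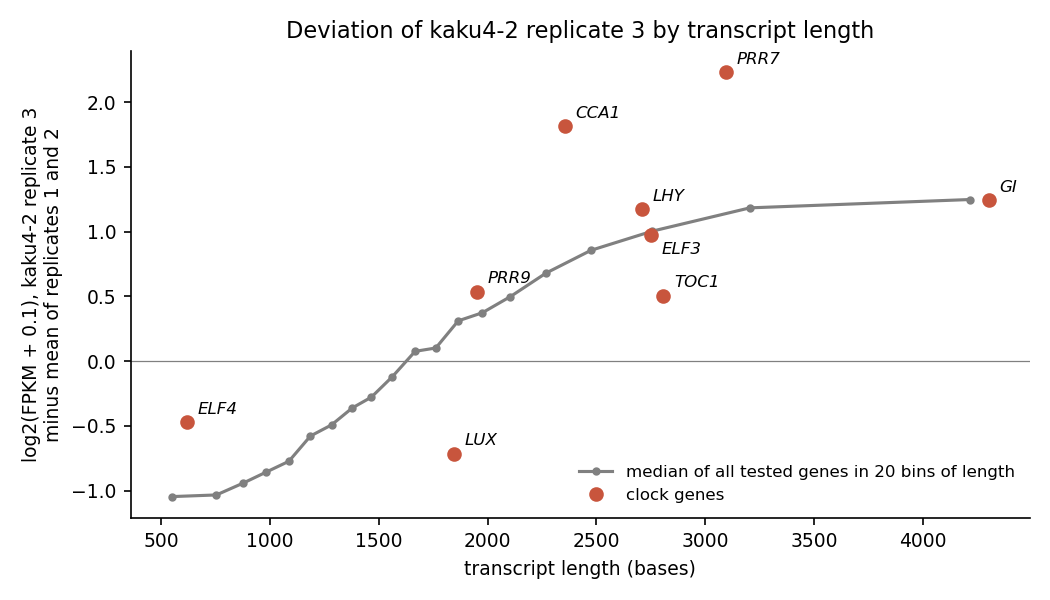
*kaku4-2* replicate 3 minus the mean of the other 2 mutant libraries, in log2(FPKM + 0.1), plotted against transcript length in bases. The grey line joins the medians of 20 classes of length over all genes tested, and red points are the 9 tested clock genes. The line climbs from −1.05 to 1.25, and *CCA1* at 1.82 and *PRR7* at 2.23 lie well above it.

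The length trend was then taken off each library, which also takes off the median difference between the genotypes in each length class. That difference was 0.40 for the class of *LHY*, *TOC1* and *ELF3* and −0.61 for that of *ELF4*. The log2 fold changes of most members moved toward 0. Those of *TOC1* (0.06), *GI* (−0.07), *LUX* (−0.03) and *ELF4* (0.02) had intervals that held 0 near their middle. *PRR9* stayed at 1.14 (SE 0.36, 95% interval 0.30 to 1.97) and was again the only member called up, against 6.71% of all genes. *LHY* was the only member called down, at −0.999 (SE 0.19, 95% interval −1.45 to −0.55, limma, adjusted p = 0.0551 by Benjamini-Hochberg), against 5.58% of all genes. Thus *LHY* was called down without the divergent library and with the length trend taken off all libraries, and *PRR9* was called up with and without these 2 treatments.

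**Figure D4:**
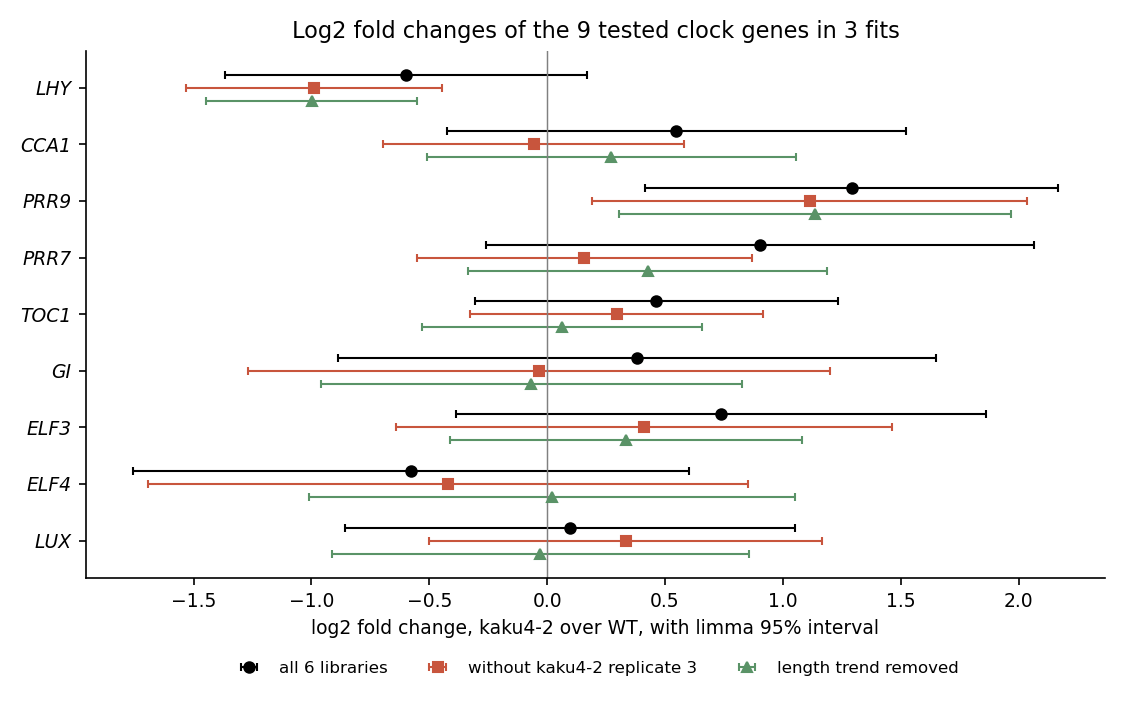
Log2 fold changes of the 9 tested clock genes, the mutant over the WT, with 95% limma intervals, in the fit of all 6 libraries (black circles), without *kaku4-2* replicate 3 (red squares) and with the length trend removed (green triangles). The intervals of *PRR9* lie above 0 in all 3 fits, and those of *LHY* lie below 0 in the last 2.

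In the order of levels, *LHY* and *CCA1* were apart in the WT and overlapped in the mutant. In the WT, *LHY* led with a mean of 21.0 ± 6.002 FPKM (SD, n = 3), its range apart from that of *CCA1* at 10.2 ± 3.29 FPKM. *CCA1* and *PRR9* at 4.80 FPKM overlapped, and *PRR9* was apart from *TOC1* at 1.87 FPKM, which was apart from *PRR7* at 1.56 FPKM. *PRR7*, *ELF4* (1.51 FPKM) and *LUX* (0.982 FPKM) overlapped in turn. *GI* at 0.308 FPKM and *ELF3* at 0.290 FPKM were not distinct from each other and were apart from *LUX* above and *PRR5* below. In the mutant, *CCA1* (17.4 ± 13.8 FPKM), *LHY* (14.6 ± 7.54 FPKM), *PRR9* (11.0 FPKM), *PRR7* (4.01 FPKM) and *TOC1* (2.66 FPKM) each overlapped with the next. *TOC1* was apart from *LUX* at 1.12 FPKM, and *LUX*, *ELF4*, *ELF3* and *GI* ran together from there to 0.440 FPKM. Much of this order rested on replicate 3. Without it, *LHY* (10.3 FPKM) led again, *PRR9* (9.69 FPKM) and *CCA1* (9.42 FPKM) overlapped with it in turn, and *TOC1* (2.32 FPKM) stood apart from *CCA1* above and from *PRR7* (1.75 FPKM) below, as it stood above *PRR7* in the WT.

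The ratio of 2 genes within a library does not change with the scale of that library. *LHY* was taken as the reference after its values were seen, so these ratios are a description. The ratio of *CCA1* to *LHY* was 0.473, 0.591 and 0.389 in the WT and 0.890, 0.940 and 1.43 in the mutant. Every mutant library was thus higher than every WT library, as was so for 31.5% of all genes. The mean log2 ratio differed by 1.15. The ratio of *PRR9* to *LHY* was 0.291, 0.153 and 0.205 in the WT and 1.22, 0.690 and 0.587 in the mutant, a difference of 1.92 on the log2 scale. Thus *PRR9* was far under *LHY* in every WT library and exceeded it in mutant replicate 1.

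The log2 ratio to *LHY* was also higher in all mutant libraries for *PRR7* (a difference of 1.54), *ELF3* (1.52) and *TOC1* (1.09), 5 of 8 members in all, whereas 31.5% of all genes were so. Since *LHY* is shared by these ratios, they are not independent of each other. Of the 36 pairs of tested members, 5 had ratios that did not overlap between the genotypes, and *LHY* was in each of the 5. With the length trend removed, 6 of 8 members had a higher ratio to *LHY* in all mutant libraries, beside 66.7% of all genes. This share is near the background, so that after the correction the clock genes stood to *LHY* as most genes did.

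**Figure D5:**
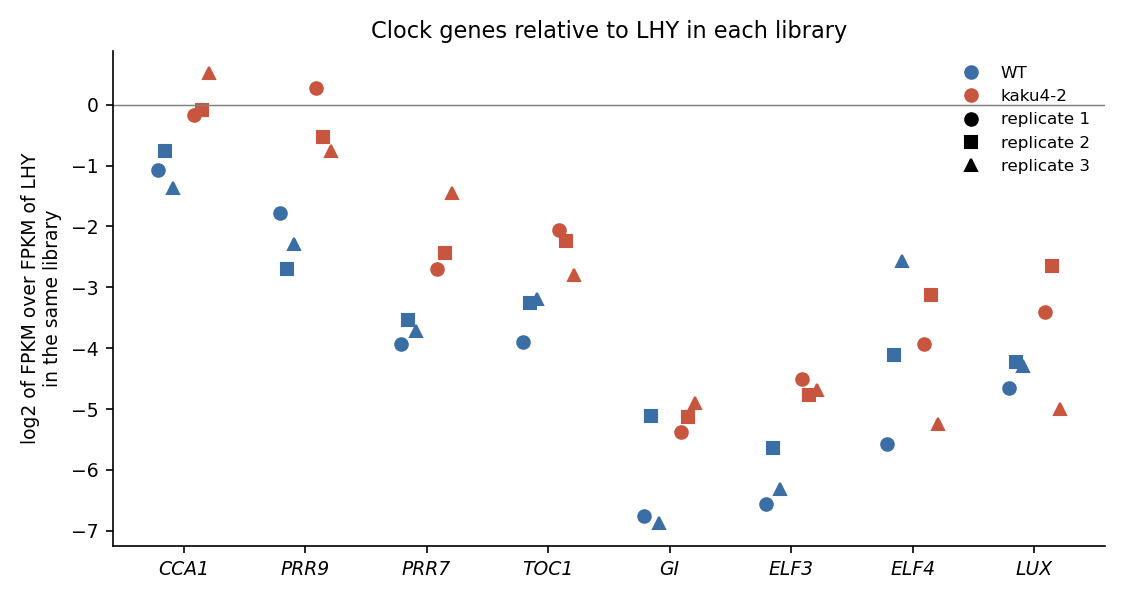
Log2 of the FPKM of 8 clock genes over the FPKM of *LHY* in the same library, with WT in blue, *kaku4-2* in red and replicates by symbol. The line at 0 marks a level equal to *LHY*. For *CCA1*, *PRR9*, *PRR7*, *TOC1* and *ELF3* all red symbols lie above all blue ones, and for *GI*, *ELF4* and *LUX* they overlap.

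The spread between libraries of a genotype differed widely among the clock genes. It ran from percentile 0.368 to 96.2 of all genes tested in the WT and from 23.7 to 97.5 in the mutant. The median SD on the log2 scale was 0.39 in the WT and 0.58 in the mutant for the 9 tested members, and 0.32 and 0.51 for all genes tested. The least even members were *ELF4* (1.08, percentile 96.2) and *PRR9* (0.80, percentile 92.5) in the WT, and *PRR7* (1.301, percentile 97.5) and *CCA1* (1.05, percentile 94.1) in the mutant. The estimated number of fragments behind each value was 598 to 1824 for *LHY*, 269 to 2231 for *CCA1*, 96.9 to 739 for *PRR9*, 91.9 to 272 for *TOC1*, 71.1 to 773 for *PRR7*, 26.7 to 65.6 for *LUX* and 10.3 to 72.1 for *ELF3*. Counting error was thus smallest for *LHY* and *CCA1* and largest for *PRR5* and *ELF4*, which says nothing of the spread between libraries.

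Across the 6 libraries, *CCA1* and *PRR7* moved most alike (Pearson r = 0.959), followed by *TOC1* and *ELF3* (0.949). The coefficients of *LHY* over both genotypes together were −0.026 with *TOC1* and −0.069 with *PRR9*. Within each genotype, *LHY*, *CCA1*, *PRR9* and *PRR7* were all highest in the same library, WT replicate 1 and *kaku4-2* replicate 3. The share of all genes that did so was not counted. The points behind each coefficient share genotype, library scale and the third mutant library. The coefficients are thus a description, and none was computed without that library. Of 16495 other genes with a mean of at least 1 FPKM, those most like *CCA1* were *LNK2* (AT3G54500, r = 0.999), which encodes a co-activator of clock genes, AT1G09010 (0.998) and AT3G18600 (0.997). For *TOC1* they were AT3G57470 (0.995), AT2G16380 (0.993) and AT1G31540 (0.993). A coefficient of at least 0.9 with *CCA1* was held by 11.3% of these genes, and with *TOC1* by 5.44%.

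Of 27 other genes of the clock mechanism, such as the MYB-like *RVE* genes, the *LNK* and *LWD* genes and the *ZTL* family, 25 were tested, and none was called up or down by the cutoff, against 5.02% and 6.64% of all genes, or at an adjusted p of 0.05 in limma. Their log2 fold changes were positive for 9 and negative for 16, with a median of −0.32, against −0.02 for all genes and 0.46 for the core members. Without *kaku4-2* replicate 3 the median of the list was −0.14, against −0.05 for all genes. No gene of the list was higher in all mutant libraries, against 7.92% of all genes, and 6 were lower in all, against 15.0%. In 4 of these 6 (*LNK3*, *LNK4*, *RVE2* and AT5G52660) the lowest library was *kaku4-2* replicate 3, whose part in their values was not tested. The co-activator genes *LNK3* (AT3G12320) and *LNK4* (AT5G06980) were among these 6. *LNK4* stood at 212, 231 and 290 FPKM in the WT and at 172, 174 and 83.1 FPKM in the mutant (−0.84, limma, adjusted p = 0.293), and *LNK3* had −0.69 (adjusted p = 0.323), but the log2 ratios of their medians were under the 0.6 that the cutoff asks for. Without *kaku4-2* replicate 3 these values were −0.49 for *LNK4* and −0.38 for *LNK3*. The MYB-like genes *RVE8* (AT3G09600, −0.55), *RVE1* (AT5G17300, −0.56) and *RVE2* (AT5G37260, −1.04) and AT5G52660 (−0.69) were the others, with adjusted p values of 0.334 to 0.361. Without that library *RVE8* had −0.58, *RVE2* −0.44 and AT5G52660 −0.32. Without *kaku4-2* replicate 3, *RVE1* (−0.67) and *ZTL* (AT5G57360, −0.60) were called down, 2 of 25, against 6.66% of all genes. *LNK2*, in contrast, stood at 21.7, 16.5 and 11.0 FPKM in the WT and at 13.7, 15.8 and 55.4 FPKM in the mutant, the same shape as *CCA1*. *PRR3* (AT5G60100) was listed at 0 in every WT library, and *FKF1* (AT1G68050) was at 0 in all but WT replicate 1.

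Of 18 genes known for a daily rhythm under the clock, 16 were tested, none was called up, against 5.02% of all genes, and 1 was called down, a share near the 6.64% of all genes. The median log2 fold change was −0.16, and −0.37 without *kaku4-2* replicate 3. The one called was *COR27* (AT5G42900), a cold-regulated gene whose product takes part in clock and light signalling. It stood at 1.15, 1.19 and 1.89 FPKM in the WT and at 0.349, 0.958 and 0.315 FPKM in the mutant, with all mutant libraries below the WT. It had a log2 fold change of −1.34 (SE 0.49, limma, adjusted p = 0.276 by Benjamini-Hochberg) on an estimated 6.9 to 28.7 fragments a library. The call was made in 13 of 16 other settings. It was lost without WT replicate 3, without *kaku4-2* replicate 1 and with library weights. The RNA-binding protein gene *GRP7* (*CCR2*, AT2G21660, −0.85, adjusted p = 0.301) and the B-box gene *BBX18* (AT2G21320, −0.86, adjusted p = 0.257) were also lower in all mutant libraries but missed the cutoff. These 3 of the 16 compare with 15.0% of all genes, and all 3 were lowest in *kaku4-2* replicate 3. Without it *COR27* had −1.10, *GRP7* −0.42 and *BBX18* −0.55. The other genes of the list overlapped between the genotypes.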

How the data were processed

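RNA-seq of 6 libraries was used, 3 of the WT and 3 of *kaku4-2*, grouped by genotype and numbered as in their labels. The authors aligned reads to TAIR10 with TopHat2 2.0.9 and deposited FPKM from Cufflinks for 23069 genes. The annotation, the use of strand and the choice of genes are not given in the sources used here. All 6 value columns were assigned to a library by name.

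Genes with a mean of at least 0.1 FPKM were compared on log2(FPKM + 0.1). The tool was limma 3.58.1 (R 4.3.3) with its variance trend over expression level. Tests were two-sided, and p-values were adjusted by Benjamini-Hochberg over all 20638 genes. The p-values rest on the spread between these libraries, with the variance of each gene drawn toward that of genes of like level. Fragments were estimated from the spacing of low FPKM values and cover counting error only. The divisors fitted for this were 19300000 to 32000000 a library. They are not read totals, since the paper lists near-equal mapped reads for the 6 libraries. With these divisors, 31.6% to 36.5% of the low values lay close to a whole number of fragments, so the estimates are rough. Positions and windows came from TAIR10.1, in which 22881 loci were found, and 342 of 344 checked distances matched it.

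The members and lists were chosen with earlier results of these data known. Named are the members, *KAKU4*, listed genes called by the cutoff, the genes between *CCA1* and *PRR9*, and the 3 genes most like *CCA1* and *TOC1*. Other listed genes were named after their values were seen. Same-numbered libraries did not deviate together. The alternatives were other pseudocounts, filters and scalings, a removed length trend, no variance trend, library weights, a replicate block, a fold of means and each library left out. Protein sequences were not analysed here, and 1 promoter window is not reported here.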

Additional observations from a re-analysis of the deposited data

How the results depend on the processing

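Over 16 alternatives, the log2 fold changes of *LHY*, *TOC1*, *PRR9* and *PRR7* kept their sign in 16, that of *ELF3* in 15 of 15, *CCA1* in 15, *ELF4* in 14, *LUX* in 13 and *GI* in 12 of 15. Calls were few, so the counts moved with 1 gene. Leaving out a library in turn gave 1 to 2 members called up and 0 to 1 called down. It gave 0 to 1 up and 0 to 5 down among the other clock genes, and 0 to 1 up and 0 to 3 down among the output genes. Over all genes these fits called 546 to 1512 up and 673 to 2660 down. The counts of 5 came without *kaku4-2* replicate 1 or 2, where 2428 of 20643 and 2660 of 20639 genes were down. The main fit called 1370 of 20638 down. Removing the length trend gave 1 member (*LHY*) and 2 other clock genes (*RVE1* and *ZTL*) called down, against 5.58% of all genes. Library weights gave 1 member down, 2 members (*LHY* at −0.82 and *PRR9* at 1.24) at an adjusted p of at most 0.05, 1 other clock gene up, 1 down and 0 output genes down. By the cutoff, library weights called 2126 of 20638 genes up and 1981 down. They called 5054 genes at an adjusted p of at most 0.05, against 99, and their estimation stopped before it converged. A fold of means gave 2 other clock genes and 3 output genes down, and 1973 of 20638 genes over all. A filter at 1 FPKM left 0 output genes down, since it removes *COR27*. The causes of the other moves were not tested. Of all calls by the cutoff, 43.1% were up, and 51.1% were up after scaling by the median ratio, 51.6% after quantile normalization and 54.6% without the length trend.

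The deviations of same-numbered libraries from their group means correlated at −0.159, −0.025 and −0.408, so the numbers were not taken as pairs. With the replicate block the log2 fold change of *PRR9* was again 1.29 (limma, adjusted p = 0.314), 1 member was called up and 0 down, and 706 genes were up and 1017 down over all genes, against 1037 and 1370. Depth limits *PRR5*, *ELF4*, *ELF3* and *GI*, and groups of 3 cannot give an exact permutation p under 0.1.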
